A study of Mus musculus with 3 samples.

Results

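Glycolysis, glucose uptake and the genes that respond to low oxygen were followed gene by gene in mouse cavernous endothelial cells, through 35 genes chosen by their symbols for their place in these pathways. All 35 were found on the arrays, on 57 probes out of 39429, and they make up 35 of the 19751 genes that could be named. The set holds 2 glucose transporters, the enzymes of each glycolytic step, the enzymes and transporters of lactate, a kinase at the entry of pyruvate into mitochondria, 8 targets of the hypoxia-inducible factors outside glycolysis, and 3 genes of the hypoxia-inducible factor system itself.

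Glycolysis splits glucose into pyruvate in the cytosol. Cells bring glucose in through facilitative transporters, trap it by phosphorylation, commit it at phosphofructokinase and, when pyruvate is not burned in mitochondria, release it as lactate. Endothelial cells are known to draw most of their energy from this route even when oxygen is present. When oxygen falls, the hypoxia-inducible factors escape prolyl hydroxylation and the von Hippel-Lindau ubiquitin ligase, bind short DNA elements and raise most of these genes together with others that act on mitochondria, collagen and growth signalling.

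The cells were primary endothelial cells of the penile corpus cavernosum of C57BL/6 mice, grown with serum, heparin and vascular endothelial growth factor A. One single-colour array was labelled high glucose (30 mmol) with siRNA against Ninj1 (200 pmol), a gene for an adhesion protein first described after nerve injury, and 1 array was labelled high glucose (30 mmol) and 1 normal glucose (5 mmol), all for 48 h. Each array carried RNA pooled over 3 numbered samples, and the labels do not say whether the cells without Ninj1 siRNA received a control siRNA. The arrays are called siRNA-labelled, HG-labelled and normal-labelled here. Since each group has 1 array, no replicate stands behind any difference and none was tested. "Higher" and "lower" are used for differences of at least 1.5-fold (0.585 on the log2 scale) and say nothing beyond these arrays.

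The labels carry a limit that touches every value. Ninj1, the target of the siRNA, gave signals of 25539 on the siRNA-labelled array, 16291 on the HG-labelled array and 20413 on the normal-labelled array. It was therefore brightest where its siRNA was labelled. Other records of the array assignment differ from the labels and take the HG-labelled array as siRNA, as given at the end. Of 12 endothelial markers 7 were well above background on the siRNA-labelled array and 9 on each of the others, and Emcn, Erg and Tie1 were not on any. Kdr, the main receptor of vascular endothelial growth factor A, was bright (8278, 7298 and 7440.0 on the siRNA-labelled, HG-labelled and normal-labelled arrays), as was Egfl7 (5967, 3194 and 3355). Eng (1499.7, 2242 and 2207), Cdh5 (618, 185 and 166) and Esam (327, 126 and 112) lay between. Pecam1 (72.4, 76.5 and 61.9), Vwf (32.3, 66.2 and 63.3), Tek (7.63, 38.1 and 41.2) and Cldn5 (11.8, 21.3 and 22.5) were dim. All 8 fibroblast markers were well above background on every array. The RNA therefore held transcripts of both lists, the arrays do not show which cells the 35 genes were read from, and in such RNA fewer cells of a type and less RNA per cell cannot be told apart.

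Signals are scanner units after background subtraction, and differences are log2 signals after subtracting each array's 75th percentile (a signal of 2023 on the siRNA-labelled array, 1728 on the HG-labelled array and 1779.5 on the normal-labelled array). An equal signal on the siRNA-labelled array is therefore a lower scaled level. Between 67.1 and 70.6% of probes were well above background, no spot was saturated, and all 35 genes were well above background on every array. Spots of 300 probes printed 10 times gave a median SD of a log2 difference between single spots of 0.08 to 0.09, which covers spot noise only.

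**Figure D1:**
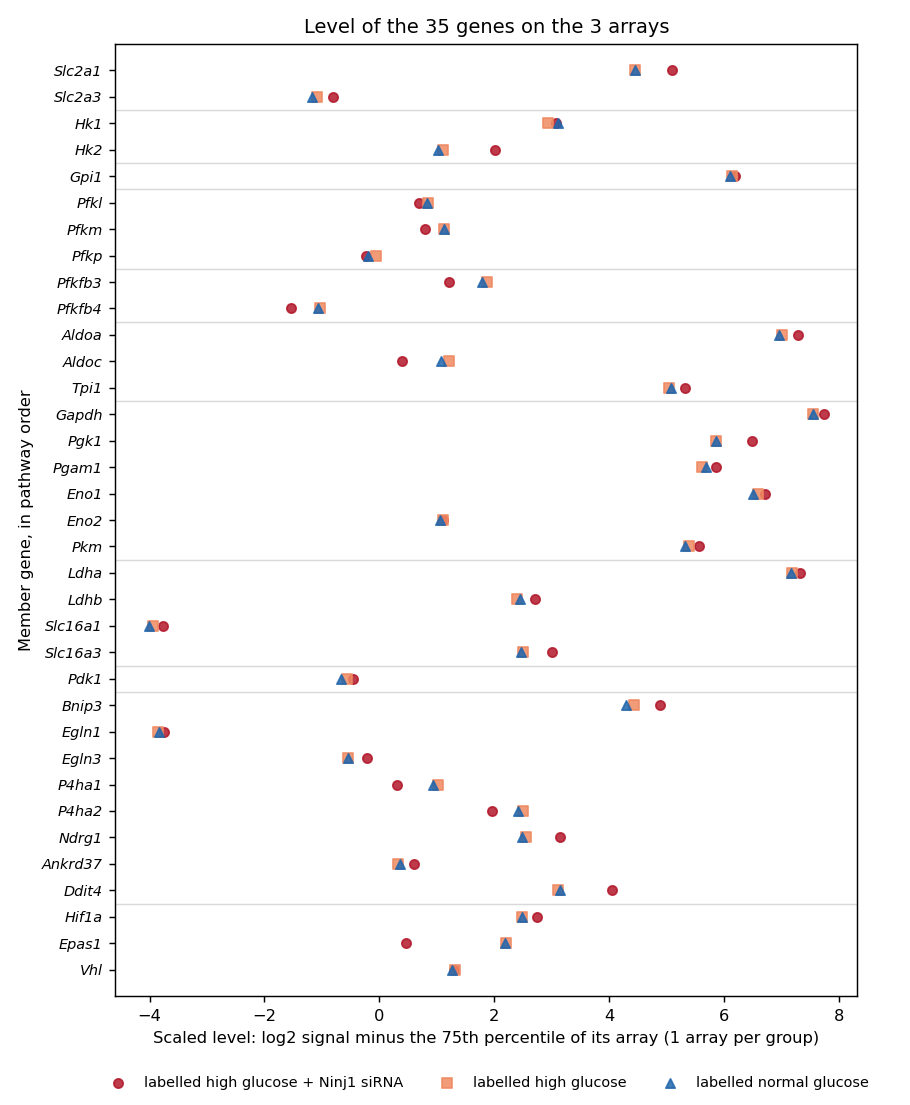
Scaled level (log2 signal minus the 75th percentile of its array, horizontal axis) of the 35 genes in pathway order, 1 point per array, with circles for the siRNA-labelled, squares for the HG-labelled and triangles for the normal-labelled array. Points are to be compared within a row only. Squares and triangles nearly coincide in each row, and circles stand to the right for Slc2a1, Hk2, Pgk1, Ndrg1 and Ddit4 and to the left for Pfkfb3, Aldoc, P4ha1 and Epas1.

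Across the 35 genes, 5 were higher on the siRNA-labelled array than on the HG-labelled array (Slc2a1, Hk2, Pgk1, Ndrg1 and Ddit4), where 14.6% of 15372 named genes were higher. Another 4 were lower (Pfkfb3, Aldoc, P4ha1 and Epas1), where 16.2% of all named genes were lower. These counts are near or below those shares, so neither is a result about the set. The median log2 difference was 0.17 over the set and 0.02 over all named genes, and 24 of the 35 lay above 0 (68.6%, against 51.7% of all named genes). With quantile normalization the median of the set was 0.12 and 21 lay above 0, and with cyclic loess 0.07 and 20. The differences ran from -1.73 for Epas1 to 0.94 for Ddit4. At a threshold of 2-fold only Epas1 was left, on the lower side, where 1033 of the 15372 named genes were higher and 1306 lower.

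The siRNA-labelled and normal-labelled arrays were compared on the same scale, and this comparison shares the siRNA-labelled array with the last. Here 6 genes were higher (the same 5 and Bnip3), against 14.2% of 15293 named genes, and 3 were lower (Aldoc, P4ha1 and Epas1), against 15.8%. The median was 0.21. Between the HG-labelled and normal-labelled arrays 0 genes were higher and 0 were lower, against 1.65% and 1.33% of 15086 named genes, and the median was 0.04, against -0.01 over all named genes. The 35 differences between these arrays ran from -0.17 for Hk1 to 0.13 for Aldoc and Bnip3.

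**Figure D2:**
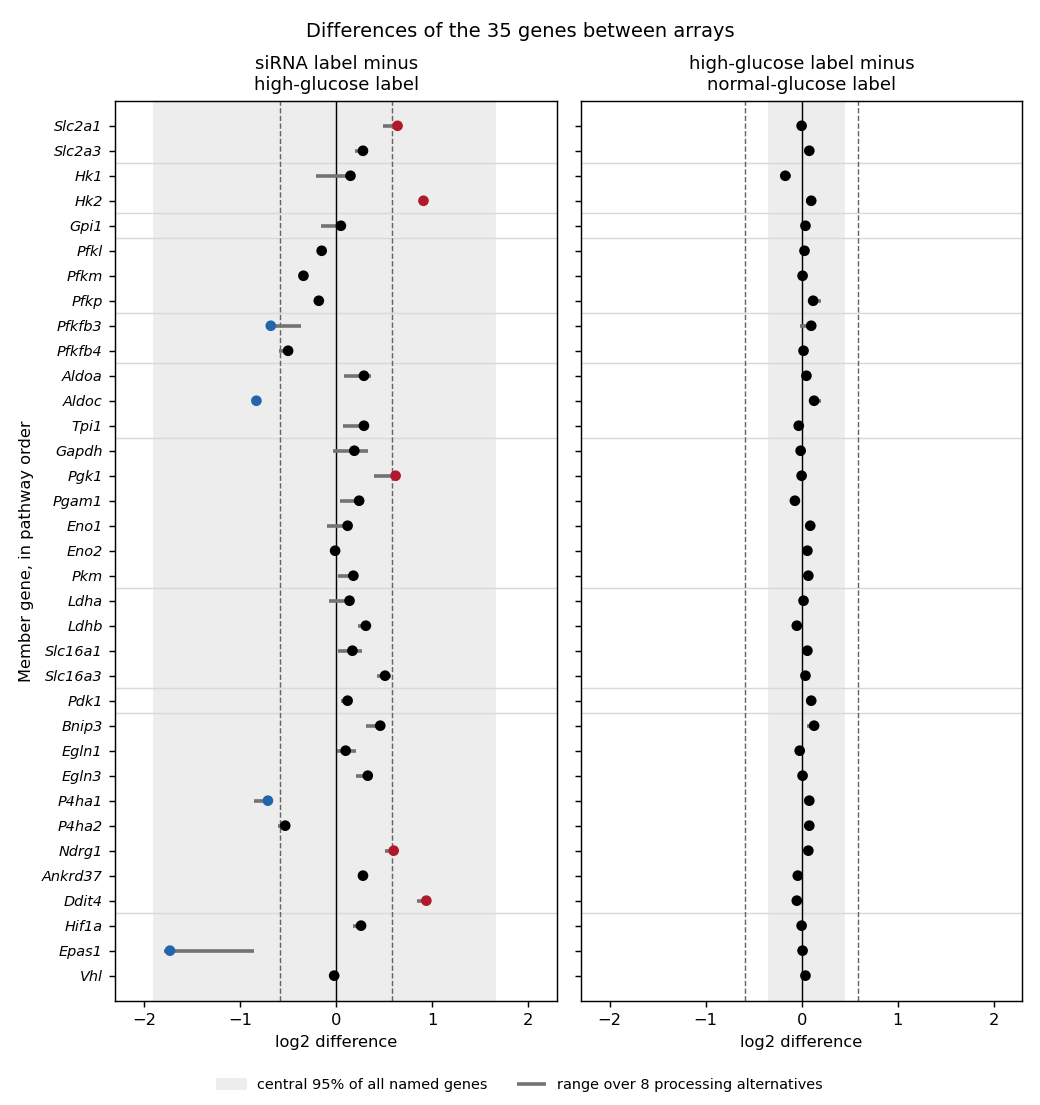
Log2 differences of the 35 genes for the siRNA-labelled minus the HG-labelled array (left) and the HG-labelled minus the normal-labelled array (right). Points are the reported values, coloured where at least 1.5-fold (dashed lines), bars span 8 other ways of processing the arrays, and grey marks the central 95% of all named genes. The left panel runs from -1.73 to 0.94 and the right from -0.17 to 0.13.

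Hypoxia-inducible factors bind the core letters ACGTG or GCGTG, read as CACGT or CACGC on the other strand. The promoter windows of the genes that differed most each way and could be looked up are shown for these letters: Ddit4 and Hk2, higher on the siRNA-labelled than on the HG-labelled array, and Aldoc and P4ha1, lower. Each window runs from 250 bases before to 50 bases after a RefSeq start site on GRCm38.p6, 5′ to 3′ on the gene's strand, with the core letters in capitals. Ddit4 lies on the minus strand at chr10:59951721-59952020, Hk2 on the minus strand at chr6:82774405-82774704, Aldoc on the plus strand at chr11:78322823-78323122 and P4ha1 on the plus strand at chr10:59323046-59323345.
Ddit4: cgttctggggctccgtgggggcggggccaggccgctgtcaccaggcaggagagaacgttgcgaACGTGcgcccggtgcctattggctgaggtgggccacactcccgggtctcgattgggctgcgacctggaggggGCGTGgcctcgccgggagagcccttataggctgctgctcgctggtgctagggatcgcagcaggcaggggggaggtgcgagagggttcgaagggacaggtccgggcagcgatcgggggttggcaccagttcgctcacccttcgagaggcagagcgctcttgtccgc
Hk2: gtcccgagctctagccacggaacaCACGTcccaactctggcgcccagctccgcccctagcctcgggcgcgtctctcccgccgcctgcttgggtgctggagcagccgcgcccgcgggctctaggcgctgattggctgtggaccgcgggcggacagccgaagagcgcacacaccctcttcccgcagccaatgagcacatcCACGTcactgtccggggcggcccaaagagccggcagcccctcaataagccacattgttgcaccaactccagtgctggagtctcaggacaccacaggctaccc
Aldoc: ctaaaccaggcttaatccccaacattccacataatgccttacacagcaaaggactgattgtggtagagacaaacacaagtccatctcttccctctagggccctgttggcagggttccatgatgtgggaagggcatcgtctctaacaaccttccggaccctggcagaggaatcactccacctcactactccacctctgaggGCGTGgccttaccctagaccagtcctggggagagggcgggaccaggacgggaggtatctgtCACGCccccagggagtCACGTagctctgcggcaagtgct
P4ha1: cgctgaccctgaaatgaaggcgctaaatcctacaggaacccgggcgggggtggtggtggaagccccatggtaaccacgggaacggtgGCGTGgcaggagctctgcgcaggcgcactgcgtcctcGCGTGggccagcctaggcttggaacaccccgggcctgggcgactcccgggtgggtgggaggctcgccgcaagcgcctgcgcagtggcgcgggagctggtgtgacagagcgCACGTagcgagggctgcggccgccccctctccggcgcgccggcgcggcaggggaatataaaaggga
The Ddit4 and Hk2 windows hold 2 matches each, and the Aldoc and P4ha1 windows 3 each, so the letters stand in the promoters of genes that lay on opposite sides. Aldoc has 2 windows, and the one with more matches is shown. The other holds 1. Of the 35 genes 32 were in the promoter table (not Slc2a3, Ndrg1 and Epas1), and 28 of these (87.5%) had a window with a match. Among all 27025 genes with a promoter window, 46.7% had one. A gene with more windows has more places for a match. By window the shares were 80% of 45 for these genes and 43.8% of 32851 for all. The 35 genes were chosen for their place in these pathways, so the shares are a description only. A match describes the letters of a window and is not evidence of binding.

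Uptake came first in the pathway and included a higher gene. Slc2a1, which encodes GLUT1, the main glucose carrier of endothelium, gave signals of 69133 on the siRNA-labelled array, 37858 on the HG-labelled array and 38966 on the normal-labelled array. After scaling it was 1.56-fold higher on the siRNA-labelled array than on either of the others (log2 difference 0.64), and 0.49 and 0.50 against the HG-labelled array with quantile and cyclic loess normalization, under 1.5-fold. The HG-labelled and normal-labelled arrays did not separate for it, with a difference of 0.00. Slc2a3, encoding the high-affinity carrier GLUT3, gave 1152, 813 and 789.7 on the siRNA-labelled, HG-labelled and normal-labelled arrays, with log2 differences of 0.28 between the first pair and 0.08 between the last.

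Hexokinases phosphorylate glucose and hold it in the cell. Hk2, the inducible form, gave signals of 8229 on the siRNA-labelled array, 3735 on the HG-labelled array and 3601 on the normal-labelled array. It was 1.88-fold higher on the siRNA-labelled than on the HG-labelled array (0.91) and 2.01-fold higher than on the normal-labelled array (1.01). This was the largest difference on the higher side among the 24 uptake, glycolysis and lactate genes. Against the HG-labelled array it ran from 0.86 to 0.93 over the other scalings and normexp background correction. Hk1, the constitutive form, gave 17140.3, 13171 and 15265 on the siRNA-labelled, HG-labelled and normal-labelled arrays. Its brightest probe differed by 0.15 between the siRNA-labelled and HG-labelled arrays and its other, dimmer probe by -0.58, so its probes disagreed in sign.

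Gpi1, the isomerase that turns glucose 6-phosphate into fructose 6-phosphate, gave 146681 on the siRNA-labelled array, 121321 on the HG-labelled array and 121799 on the normal-labelled array. Its 3 probes differed by 0.05 to 0.11 between the siRNA-labelled and HG-labelled arrays, and its brightest by -0.16 with quantile and -0.13 with cyclic loess normalization. Its sign therefore went with the scaling.

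At the committed step all 3 phosphofructokinase genes lay below 0 on the siRNA-labelled array against the HG-labelled array, none by 1.5-fold. Pfkm, the muscle subunit, was printed in 10 spots per array, with mean signals of 3514 (3385 to 3617) on the siRNA-labelled array, 3793 (3729 to 3841) on the HG-labelled array and 3869 (3734 to 3974) on the normal-labelled array. The 10 spots on the siRNA-labelled array lay below all spots on the other arrays before scaling, and after scaling the difference from the HG-labelled array was -0.34. Pfkl, the liver subunit, gave 3273, 3096 and 3132 on the siRNA-labelled, HG-labelled and normal-labelled arrays and a scaled difference of -0.15 between the first pair. Pfkp, the platelet subunit, gave 1710.1, 1657 and 1565 in the same order, and its 2 probes differed by -0.18 and -0.23.

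The enzymes that set phosphofructokinase activity lay on the same side. Pfkfb3, which makes fructose 2,6-bisphosphate, the activator of phosphofructokinase, and is known to drive glycolysis in sprouting endothelium, gave signals of 4664 on the siRNA-labelled array, 6363 on the HG-labelled array and 6111 on the normal-labelled array. It was 1.6-fold lower on the siRNA-labelled than on the HG-labelled array (-0.68), and its difference from the normal-labelled array was -0.57. A second, dim Pfkfb3 probe (63.8, 57.1 and 64.9) differed by -0.07, and with the mean of both probes the difference was -0.37, under 1.5-fold. Pfkfb4, a related enzyme of the same activity, gave 698, 840.4 and 853 on the siRNA-labelled, HG-labelled and normal-labelled arrays, and a log2 difference of -0.50 between the first pair, or -0.59 with normexp background correction.

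The aldolases split fructose 1,6-bisphosphate, and their isozymes differed. Aldoc, the isozyme best known from brain, gave signals of 2642 on the siRNA-labelled array, 4002 on the HG-labelled array and 3755 on the normal-labelled array. It was 1.77-fold lower on the siRNA-labelled than on the HG-labelled array (-0.83) and 1.61-fold lower than on the normal-labelled array (-0.69). Aldoa, the widely expressed isozyme, gave 317495, 221311 and 219495 on the siRNA-labelled, HG-labelled and normal-labelled arrays, with a log2 difference of 0.29 between the first pair. The Aldoc value moved little with processing (-0.86 to -0.81). Tpi1, which interconverts the triose phosphates, gave 81065, 56704 and 59724 on the same arrays and a difference of 0.29, while its second probe (11599, 10955 and 11231) differed by -0.14.

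From aldolase to lactate dehydrogenase, the widely expressed forms Aldoa, Tpi1, Gapdh, Pgk1, Pgam1, Eno1, Pkm and Ldha lay above 0 on the siRNA-labelled against the HG-labelled array (0.12 to 0.62, median 0.22), while Aldoc (-0.83) and Eno2 (-0.01) of the same stretch did not. Of the 8 widely expressed forms, grouped with their values known, 6 lay above 0 with quantile normalization and 5 with cyclic loess, with medians of 0.08 and 0.05. Only Pgk1 passed 1.5-fold. Pgk1, phosphoglycerate kinase, which yields the first ATP of the pathway, gave signals of 180131 on the siRNA-labelled array, 100190.4 on the HG-labelled array and 102988 on the normal-labelled array. It was 1.54-fold higher on the siRNA-labelled than on the HG-labelled array (0.62), or 0.40 with quantile and 0.44 with cyclic loess normalization, both under 1.5-fold.

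Gapdh, the dehydrogenase that is often used as a reference gene, was read by 7 probes. The brightest gave 430053 on the siRNA-labelled array, 321129 on the HG-labelled array and 332552 on the normal-labelled array. The 7 probes differed by 0.19 to 0.48 between the siRNA-labelled and HG-labelled arrays, and the brightest by -0.03 with cyclic loess. No probe of Gapdh reached 1.5-fold, and the HG-labelled and normal-labelled arrays differed by -0.01 on the brightest.

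Pgam1, phosphoglycerate mutase, gave 116767, 84366 and 91426 on the siRNA-labelled, HG-labelled and normal-labelled arrays and a log2 difference of 0.24 between the first pair. The enolases make phosphoenolpyruvate. Eno1, the general form, gave 211738, 166314 and 161394 on these arrays and 0.12, or -0.09 with quantile and -0.07 with cyclic loess normalization. Eno2, the neuronal form, gave 4343, 3731 and 3697 and -0.01. Pkm, pyruvate kinase, gave 95906, 72425 and 71156 and 0.18. None of these came near the threshold, and the sign for both enolases depended on the scaling.

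All 4 lactate genes lay above 0 on the siRNA-labelled against the HG-labelled array, none by 1.5-fold. Ldha did not under cyclic loess (-0.07) or quantile normalization. Ldha, the lactate dehydrogenase subunit known for reducing pyruvate to lactate, gave signals of 322738 on the siRNA-labelled array, 250487 on the HG-labelled array and 254916 on the normal-labelled array, and its 3 probes differed by 0.05 to 0.31. Ldhb, the other subunit, gave 13147, 9069.6 and 9655 in that order, with a log2 difference of 0.31. Slc16a3, encoding the lactate exporter MCT4, came closest to the threshold: signals of 16334, 9787 and 9795 and differences of 0.51 and 0.57 on its 2 probes. Slc16a1, encoding MCT1, which carries lactate either way, was dim at 148, 112 and 111, with a difference of 0.17.

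Pdk1, a kinase that switches off pyruvate dehydrogenase and so keeps pyruvate out of mitochondrial oxidation, gave 1472 on the siRNA-labelled array, 1160.3 on the HG-labelled array and 1116 on the normal-labelled array. Its log2 difference was 0.12 between the siRNA-labelled and HG-labelled arrays and 0.10 between the HG-labelled and normal-labelled arrays. These values are close to the spread between single spots of a probe.

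Of the 24 uptake, glycolysis and lactate genes as a whole, 3 were higher on the siRNA-labelled than on the HG-labelled array (12.5%, against 14.6% of all named genes) and 2 were lower (8.33%, against 16.2%), with a median of 0.16. Both shares are below those of all named genes, but they rest on few genes, so neither is a result about the 24. With quantile and cyclic loess normalization 1 was higher and 2 were lower in each case, with medians of 0.07 and 0.04. Of all named genes, 15.2% and 14.6% were higher with these normalizations, and 15.7% and 16.2% were lower. Of the 24, Hk2 was the gene that stayed higher.

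Outside glycolysis, 8 hypoxia targets had a median of 0.30 between the siRNA-labelled and HG-labelled arrays, against 0.02 over all named genes. Of the 8, 2 were higher and 1 was lower, where 14.6% and 16.2% of all named genes were. With quantile or cyclic loess normalization 1 was higher, where 15.2% and 14.6% of all named genes were. Ddit4, which encodes REDD1, an inhibitor of the growth kinase mTORC1, gave signals of 33178 on the siRNA-labelled array, 14768 on the HG-labelled array and 15733 on the normal-labelled array. It was 1.92-fold higher on the siRNA-labelled than on the HG-labelled array (0.94) and 1.86-fold higher than on the normal-labelled array (0.89), the highest value against the HG-labelled array of the 35 genes. Over the other scalings and normexp background correction the difference from the HG-labelled array ran from 0.84 to 0.96.

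Ndrg1, a stress-responsive gene linked to differentiation, gave 17968 on the siRNA-labelled array, 10126 on the HG-labelled array and 9941 on the normal-labelled array. It was 1.52-fold higher on the siRNA-labelled than on the HG-labelled array (0.60), just past the threshold, and fell short of it with quantile normalization (0.57), cyclic loess (0.51) and normexp background correction (0.53). Bnip3, a receptor for the removal of mitochondria by autophagy, gave 59949, 37279 and 35035 on the siRNA-labelled, HG-labelled and normal-labelled arrays. It was 1.51-fold higher on the siRNA-labelled than on the normal-labelled array (0.59) and differed from the HG-labelled array by 0.46, with 0.29 to 0.51 over its 3 probes. Its difference from the normal-labelled array was under 1.5-fold with quantile normalization (0.45), cyclic loess (0.47), normexp background correction (0.58) and the mean over probes (0.48), and its other probes stood at 0.51 and 0.35.

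The collagen prolyl 4-hydroxylases lay on the other side. P4ha1, a catalytic subunit of the enzyme that stabilises the collagen helix, gave signals of 2506 on the siRNA-labelled array, 3505 on the HG-labelled array and 3425 on the normal-labelled array. It was 1.64-fold lower on the siRNA-labelled than on the HG-labelled array (-0.71), with its second probe at -0.98, and 1.55-fold lower than on the normal-labelled array (-0.64). P4ha2, a further catalytic subunit, gave 7881, 9742 and 9495 on the siRNA-labelled, HG-labelled and normal-labelled arrays and -0.53 between the first pair, or -0.61 with cyclic loess, past 1.5-fold. Beside these stand the 8 fibroblast markers, of which 6 were lower and 0 higher on the siRNA-labelled than on the HG-labelled array, with a median of -1.69. Their signals, as multiples of each array's 75th percentile, summed to 286 on the siRNA-labelled array, 458 on the HG-labelled array and 448 on the normal-labelled array. Dcn, the brightest of these markers (380630.2, 432729 and 435886 on these arrays), weighs most in the sums. The part of the fibroblast markers in the P4ha1 and P4ha2 values was not tested.

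The oxygen-sensing hydroxylases and the remaining target stayed under 1.5-fold. Egln3, encoding the prolyl hydroxylase PHD3, gave 1751 on the siRNA-labelled array, 1192 on the HG-labelled array and 1219 on the normal-labelled array, with log2 differences of 0.33 and 0.38 on its 2 probes between the siRNA-labelled and HG-labelled arrays. Egln1, encoding PHD2, the main oxygen sensor, was dim at 151, 120.1 and 125, with a difference of 0.10. Ankrd37, an ankyrin repeat gene under direct control of HIF-1 in human cells, gave 3056, 2153 and 2273 and 0.28.

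Of the 3 genes of the factor system, Epas1 stood apart. Epas1, which encodes HIF-2alpha, the form known for its high level in endothelium, gave signals of 2795 on the siRNA-labelled array, 7933 on the HG-labelled array and 8098 on the normal-labelled array by its brightest probe. It was 3.32-fold lower on the siRNA-labelled than on the HG-labelled array (-1.73) and 3.29-fold lower than on the normal-labelled array (-1.72). Its other probes gave smaller differences of the same sign: -0.22 for a probe at 3344, 3332 and 3187, and -0.58 for a dim one at 159, 204 and 222. Before scaling, the probe at -0.22 was not lower on the siRNA-labelled array (3344) than on the HG-labelled array (3332). With the mean over the probes the difference was -0.85, which includes the brightest probe. Only the brightest probe passed 1.5-fold, so the size, and before scaling the direction, depended on the probe. Hif1a, encoding HIF-1alpha, which is mainly controlled through protein stability, gave 13527 on the siRNA-labelled array, 9649.8 on the HG-labelled array and 9955 on the normal-labelled array and a difference of 0.26. Vhl, which marks both factors for degradation, gave 4974, 4297 and 4289.7 and -0.02.

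**Figure D3:**
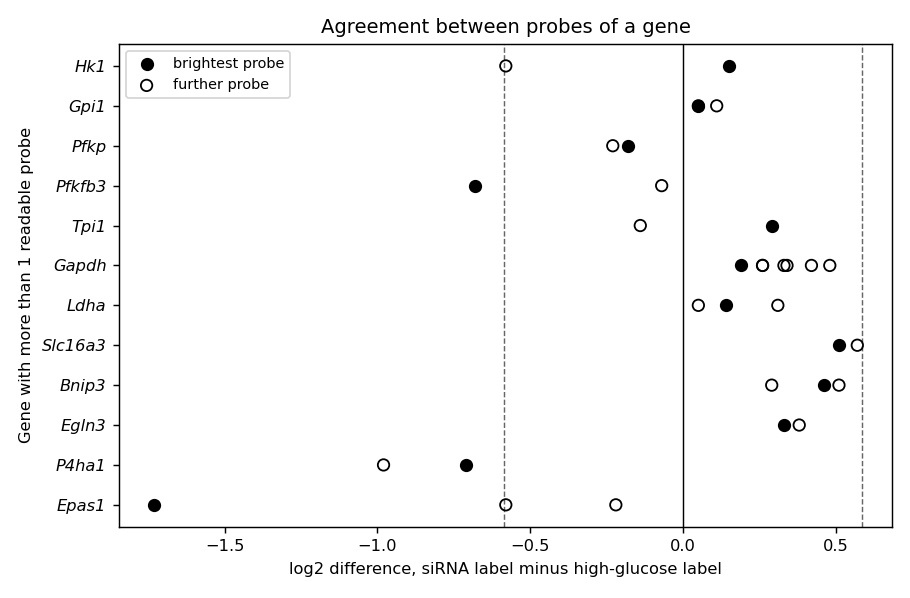
Log2 difference, siRNA-labelled minus HG-labelled array, of each readable probe of the 12 genes with more than 1. Filled points are the brightest probe, which stands for the gene, open points the further probes, and dashed lines 1.5-fold. Probes share a sign for 10 genes and disagree for Hk1 and Tpi1, and the Epas1 probes spread from -1.73 to -0.22.

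Probes of a gene were a check within each array, and 12 of the 35 genes had more than 1 readable probe. The sign of the difference between the siRNA-labelled and HG-labelled arrays was shared by all probes for 10 of these. Hk1 and Tpi1 were the exceptions. Of the 9 genes past 1.5-fold, Pfkfb3, P4ha1 and Epas1 had further probes, and a further probe also passed 1.5-fold for P4ha1. Slc2a1, Hk2, Pgk1, Ndrg1, Ddit4 and Aldoc rest on 1 probe each.

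Genes next to glycolysis were counted from lists that hold none of the 35. Of 18 other isozymes and transporters compared between the siRNA-labelled and HG-labelled arrays, 4 were higher and 4 were lower, with a median of -0.01. For this list and all that follow, the share over all named genes is 14.6% higher and 16.2% lower. Hk3, a further hexokinase, was 3.07-fold lower and dim, at 55.4 on the siRNA-labelled array, 145 on the HG-labelled array and 116 on the normal-labelled array. Hkdc1 (2.59-fold) and Slc2a6, encoding GLUT6 (2.21-fold), were lower too. On the log2 scale Hk3 (-1.62) and Hkdc1 (-1.38) came down in size to -0.96 and -0.74 over the other scalings and normexp, past 1.5-fold throughout. Eno3, the muscle enolase, was 1.96-fold higher. Around pyruvate entry into mitochondria 0 of 13 were higher and 3 were lower: Pdk4 (3.29-fold) and Pdk2 (2.4-fold), relatives of Pdk1 with the same action, and Pcx, pyruvate carboxylase (1.75-fold). Pdk1 itself, at 0.12, and Pdk3, a further relative, at 0.37, did not share the direction of Pdk2 and Pdk4.

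In the pentose phosphate pathway, which branches off at glucose 6-phosphate, 1 of 8 genes was higher on the siRNA-labelled than on the HG-labelled array and 1 was lower. Tkt, transketolase, was 2.14-fold higher, at 43291, 17279 and 18416 on the siRNA-labelled, HG-labelled and normal-labelled arrays. H6pd, which works in the endoplasmic reticulum, was 1.85-fold lower. Of 13 gluconeogenesis and glycogen genes 1 was higher (Gbe1, the glycogen branching enzyme, 2.18-fold) and 2 were lower (Pygb, a glycogen phosphorylase, 1.65-fold, and the dim Pck1, 1.71-fold, with a log2 difference of -0.77 that was -0.24 at the other end of its range over the other scalings and normexp, under 1.5-fold).

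Further hypoxia targets went both ways on the siRNA-labelled against the HG-labelled array, with a median of 0.14. Of 25, 7 were higher (28%, against 14.6% of all named genes) and 6 were lower (24%, against 16.2%). The largest were Hmox1, heme oxygenase 1 (4.68-fold higher), Adm, adrenomedullin (3.38-fold lower), Anln, a cell division scaffold (3.24-fold higher), and Loxl2, a collagen cross-linking enzyme (2.75-fold lower). Among 10 partners and regulators of the hypoxia-inducible factors 1 was higher and 2 were lower, with differences from -0.74 for Arnt2 to 0.68 for Eloc, elongin C, a part of the von Hippel-Lindau ligase. Eloc was under 1.5-fold with cyclic loess, where 0 were higher and 3 lower. Of the 5 glucose sensor genes only Txnip, an inhibitor of glucose uptake, was past 1.5-fold, at -1.92. Of 5 genes of the Myc axis, Mycn lay at -1.19 and Mxd1 at 0.97.

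**Figure D4:**
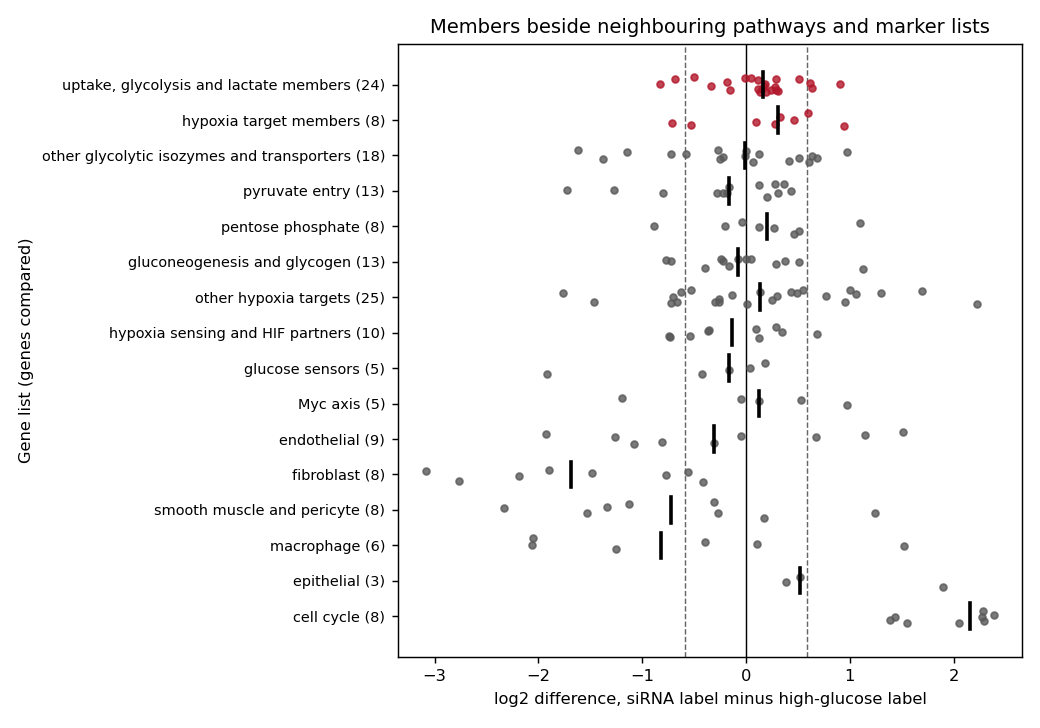
Log2 difference, siRNA-labelled minus HG-labelled array, of the genes of each list, 1 point per gene, with the list's median as a bar and 1.5-fold as dashed lines. Red marks the 24 uptake, glycolysis and lactate genes (median 0.16) and the 8 hypoxia targets (0.30), and the 8 cell cycle genes lie to the right of all of them (median 2.16).

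Among genes of growth state and of cell types, the cell cycle genes had the largest median of the lists. All 8 cell cycle genes were higher on the siRNA-labelled than on the HG-labelled array, with a median of 2.16, and their summed signals were 57.7, 17.5 and 17.8 multiples of the 75th percentile on the siRNA-labelled, HG-labelled and normal-labelled arrays. Endothelial, smooth muscle and macrophage markers were mixed, while of the 8 fibroblast markers 6 were lower and 0 higher. Of 9 readable endothelial markers 3 were higher and 4 were lower, with sums of 8.31, 7.67 and 7.57. Among the lower ones, Tek and Cldn5 were dim and their values are bounds. Cldn5 came to -0.49 at the other end of its range over the other scalings and normexp, under 1.5-fold. Smooth muscle and pericyte markers had 1 of 8 higher and 4 lower, with sums of 29.2, 56.2 and 55.2, and Myh11 was not well above background. Macrophage markers had 1 of 6 higher and 3 lower, with sums of 19.8, 18.4 and 19, and Cd68 had no named probe. Itgam (19278, 21570.3 and 23039) and Cd14 (16711, 4989 and 5420.5) were the brightest of these and weigh most in the sums. Each sum follows the brightest genes of its list and is not a measure of cell content. Of 6 epithelial markers Cdh1, Epcam and Krt8 were not well above background. The 3 compared all lay above 0, with 1 higher and 0 lower, and the sums were 0.332, 0.141 and 0.139. The part of these lists in the values of the 35 genes was not tested.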

How the data were processed

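One array per group was measured, and GEO's labels gave the groups. Per the file headers, the deposited files hold Agilent Feature Extraction 11.0.1.1 output of 43020 non-control spots per array. The processed intensity used here was already background-subtracted in the deposited files. Control spots were left out. Outlier spots (107 to 147 per array) were left out where their probe had a spot without an outlier mark, and kept where it had none. Spots of a probe were averaged, each array's 75th percentile was subtracted from the log2 intensity, and differences were taken between arrays with no test. The series value table matched these intensities for 100% of 39030 single-spot probes within 0.1%. Its column medians were 129, 118 and 118 for the siRNA, high-glucose and normal-glucose labels, so its values are linear, uncentred intensities. The 3 arrays share 1 slide and 1 scan, and their number limits the precision.

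Probes were named by accession in the RefSeq table of GRCm38.p6 (26055 of 39429 probes, 66.1%). Probe coordinates are left out because the files use mm9. A gene stands by its brightest probe well above background on at least 1 array. Where only 1 array was well above background, the value is a bound, computed against the lowest well-above signal. All 35 genes are named. From other lists, genes past 1.5-fold between the siRNA and high-glucose labels are named, up to 4 per list, largest first, and not all of these are printed. Pdk3 and the markers of cell types are named outside this rule. The 35 genes and the lists were chosen with earlier results of these data known.

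Other settings were quantile, cyclic loess and median scaling, normexp background correction (offset 50, on median spot signals, limma 3.58.1 in R 4.3.3), the series value table, other filters on dim probes, the mean over probes, a 2-fold threshold and other array assignments. The steps were tested on simulated data. Tables and plots used Python 3.11.15 with pandas 2.3.3, numpy 2.4.6 and matplotlib 3.10.9.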

Additional observations from a re-analysis of the deposited data

How the results depend on the processing

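No paired analysis was possible because each group has 1 array, and leaving out a replicate could not be run. Over 8 processing settings, 29 of the 35 genes kept the sign of their siRNA-label minus high-glucose-label difference. The exceptions were Hk1, Gpi1, Gapdh, Eno1, Eno2 and Ldha. The series value table holds the same intensities, and all 35 genes pass either filter on dim probes. These settings could therefore move the genes little or not at all. The mean over probes cannot move a gene with 1 readable probe. Over the 8 settings, 0 genes passed 1.5-fold under the high-glucose label against the normal-glucose label. Of all named genes, 0.64 to 4.32% were higher and 0.48 to 3.38% lower in this comparison. For the siRNA label against the high-glucose label, the 5 higher genes became 2 with quantile normalization, 2 with cyclic loess and 0 at 2-fold, the 4 lower became 1 at 2-fold, and the median of 0.17 became 0.07 with cyclic loess. Of all named genes, 15.2% were higher with quantile normalization and 14.6% with cyclic loess. At 2-fold, 1033 of 15372 were higher and 1306 lower. Against the normal-glucose label, the 6 higher became 3 with quantile, 3 with cyclic loess and 1 at 2-fold, the 3 lower became 1 at 2-fold, and the median of 0.21 became 0.09 and 0.08 with these normalizations. Here 14.4% and 14.2% of all named genes were higher with these normalizations. At 2-fold, 1005 of 15293 were higher and 1249 lower. The cause of the changes between settings was not tested.

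The assignment of arrays matters more. The words in the file names exchange the high-glucose arrays. By construction this turns the siRNA-label minus high-glucose-label values to -0.64 (Slc2a1), -0.91 (Hk2), 0.68 (Pfkfb3), 0.83 (Aldoc), -0.62 (Pgk1), 0.71 (P4ha1), -0.60 (Ndrg1), -0.94 (Ddit4) and 1.73 (Epas1), with a median of -0.17. Against the normal-glucose label 0 were then higher and 0 lower, the median was 0.04, and Aldoc stood at 0.13, P4ha1 at 0.08, Ddit4 at -0.05 and Epas1 at 0.01. High glucose against normal glucose then gave 6 higher, 3 lower and a median of 0.21. Assignment by the slide positions recorded inside the files, chosen after seeing the data, takes the array labelled high glucose as siRNA, the one labelled normal glucose as high glucose and the one labelled siRNA as normal glucose. It gave 0 higher, 0 lower and a median of 0.04 for siRNA against high glucose (Pfkfb3 0.10, Aldoc 0.13, P4ha1 0.08, Ddit4 -0.05, Epas1 0.01). Against normal glucose 4 were higher and 5 lower, the median was -0.17, and values were -0.64 (Slc2a1), -0.91 (Hk2), 0.83 (Aldoc), -0.62 (Pgk1), -0.46 (Bnip3), 0.71 (P4ha1), -0.60 (Ndrg1), -0.94 (Ddit4) and 1.73 (Epas1). High glucose against normal glucose gave 3 higher, 6 lower and a median of -0.21. These assignments compare the same pairs of arrays, so the shares of all named genes given above for each pair apply. Higher and lower change places where a pair is reversed. Both other assignments take as siRNA the array labelled high glucose, which gave the lowest Ninj1 signal (16291). The arrays labelled normal glucose and siRNA gave 20413 and 25539. Which assignment holds was not tested. Dim probes (Slc16a1, Egln1) limit what can be read from their values.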
